A study of Mus musculus with 21 samples.

Results

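The enzymes that make serine from glucose and that pass its carbon to folate were followed through 6 groups of mouse livers. They were 10 genes of the 46078 in the count table, found by their symbols in GENCODE M21: *Phgdh*, *Psat1* and *Psph* for serine synthesis, *Shmt1*, *Mthfd1* and *Aldh1l1* for the cytosolic folate reactions, and *Shmt2*, *Mthfd2*, *Mthfd1l* and *Aldh1l2* for the mitochondrial ones. All 10 had reads and passed the filter on low counts. *Aldh1l2* passed only through the KO noCys libraries, and the other 9 also passed without them.

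Serine is made in the cytosol from the glycolytic intermediate 3-phosphoglycerate, which Phgdh oxidizes, Psat1 transaminates and Psph dephosphorylates. Serine hydroxymethyltransferase then moves a carbon from serine to tetrahydrofolate, leaving glycine. The same chain of folate reactions exists in the cytosol and in mitochondria, and the carbon can cross between them as formate, to be used for purines, thymidylate and methionine. Serine also gives the carbon skeleton of cysteine made by transsulfuration. Adult liver is known for high levels of the cytosolic folate enzymes, while *Mthfd2* is best known from dividing cells, and *Mthfd2* and *Psat1* are known targets of the stress response to amino acid shortage.

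Bulk RNA was sequenced from the liver of 21 male mice, at least 9 weeks old, of 2 genotypes on 3 diets. KO mice lacked *Cse* (symbol *Cth*), the gene for cystathionine γ-lyase, which makes cysteine from cystathionine, in the whole body on a mixed 129/C57BL/6 background. The labels call the comparison genotype WT, but the study's text describes heterozygous *Cse*+/- mice, so WT does not mean here that both alleles were intact. All groups were calorie restricted. They ate a defined amino acid diet (CTR) for 3 days, and tissue was taken 2 days after a switch to the diet named here, which was CTR or the same diet without cysteine (noCys) or without tryptophan (noTrp). The other amino acids of the depleted diets were raised in proportion. There were 3 WT CTR, 4 WT noCys, 2 WT noTrp, 4 KO CTR, 5 KO noTrp and 3 KO noCys libraries, the last numbered 1, 3 and 4. The titles number the libraries as biological replicates, and no label gives litters, cages or days.

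Libraries held 8889951 to 27230852 counts. The targeted *Cth* lay between 108 and 452 CPM (counts relative to library size, with a correction for composition by the trimmed mean of M-values, TMM) in WT libraries and between 6.34 and 15 CPM in KO libraries, so the labels and the target went together in all 21. Which part of the gene is deleted is not given in the sources used here. The 2 WT noTrp libraries were the least alike of any group (Pearson r 0.964 across genes, against 0.972 to 0.984 for the other libraries with their own groups). The 8 hepatocyte markers were present in all 6 groups. Their summed level was 52397 to 82901 CPM in KO noCys and 108689 to 120788 CPM in WT noCys, with 4 of 8 called lower and none higher. Of the leukocyte and Kupffer cell markers, 0 of 7 tested were called (97.2 to 122 CPM in KO noCys, 124 to 188 CPM in WT noCys), and of the dividing-cell markers 1 of 4 tested was lower (3.72 to 3.83 and 4.05 to 5.95 CPM summed over 8 genes). Neither pair of sums overlapped, and the median log2 fold change of the leukocyte and Kupffer cell markers was -0.56. Of all genes tested, 13.4% were called lower and 14.8% higher in KO noCys against WT noCys. Erythroid (3 of 5 tested), periportal hepatocyte (2 of 5), cholangiocyte (2 of 5), endothelial (2 of 5) and stellate cell (1 of 6) markers were called lower in the counts given, and 1 of 5 pericentral markers higher. The muscle markers summed to 0 to 2.76 CPM in KO noCys. 4 of 5 adipocyte markers stood at 0 in KO noCys, the tested one, *Cidec*, being higher (log2 fold change 1.48). The part of these shifts in the values below was not tested. In bulk tissue, fewer cells of a type and less RNA per cell cannot be told apart.

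Levels of different genes were compared per length, as RPKM, the CPM divided by the exon length in kilobases. In WT CTR liver the 10 genes spanned a wide range and fell into a high and a low set. *Aldh1l1*, which oxidizes 10-formyltetrahydrofolate to release carbon dioxide in the cytosol, was highest at 214 ± 15.1 RPKM (SD, n = 3). *Shmt2*, the mitochondrial serine hydroxymethyltransferase, followed at 75.2 ± 2.71 RPKM. *Mthfd1*, the trifunctional cytosolic folate enzyme, at 40.7 ± 5.09 RPKM, and *Shmt1*, the cytosolic serine hydroxymethyltransferase, at 38.3 ± 7.08 RPKM, overlapped each other. The remaining 6 all lay below 1 RPKM. *Psph* was at 0.784 ± 0.104 RPKM, *Mthfd1l* at 0.301 ± 0.133, *Mthfd2* at 0.293 ± 0.0964, *Psat1* at 0.125 ± 0.0624, *Phgdh* at 0.0685 ± 0.0519 and *Aldh1l2* at 0.00687 ± 0.0119 RPKM. In that order *Mthfd1l* overlapped *Mthfd2*, and *Psat1* overlapped *Phgdh*, while other neighbours did not overlap. The levels of the low set rest on few reads: the 3 WT CTR libraries together held 5 reads of *Phgdh* and 2 of *Aldh1l2*.

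In KO noCys the same 4 genes led, but the low set was ordered differently. *Psat1* came next at 12.7 ± 2.35 RPKM (n = 3) and then *Mthfd2* at 6.80 ± 4.40 RPKM, and *Psat1* was above every library of the genes after it. *Mthfd2* (1.94 to 10.5 RPKM) overlapped *Mthfd1l* (1.87 ± 0.377 RPKM) and *Psph* (1.78 ± 0.615 RPKM), which overlapped each other. *Phgdh* (0.471 ± 0.313 RPKM) and *Aldh1l2* (0.327 ± 0.143 RPKM) were still the lowest and overlapped. Counted on coding length in place of all exons, *Psph* moved ahead of *Mthfd1l* and *Aldh1l2* ahead of *Phgdh* in KO noCys, and in WT CTR *Shmt1* moved ahead of *Mthfd1*, and *Mthfd2* and *Psat1* ahead of *Mthfd1l*.

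KO noCys against WT noCys asks what loss of the enzyme did when the diet held no cysteine. Of the 10 genes, 7 were called higher and 0 lower (edgeR quasi-likelihood F-test, Benjamini-Hochberg adjusted p under 0.05 over 14370 genes), where 28.2% of all genes tested were called and 14.8% were called higher. Without KO noCys replicate 3, 6 members and 2358 of all genes were called in place of 7 and 4055. With all libraries and without *Aldh1l2*, which passed the filter through this group, 6 of 9 were called. The median log2 fold change was 1.64 over the 10 and 0.98 over those 9, and that of all genes tested was -0.02. The 7 were all 3 serine synthesis genes and all 4 mitochondrial genes, and the 3 not called were the cytosolic ones. The call of *Aldh1l2*, a mitochondrial one, is no support for that split, since it passed the filter through KO noCys.

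**Figure D1:**
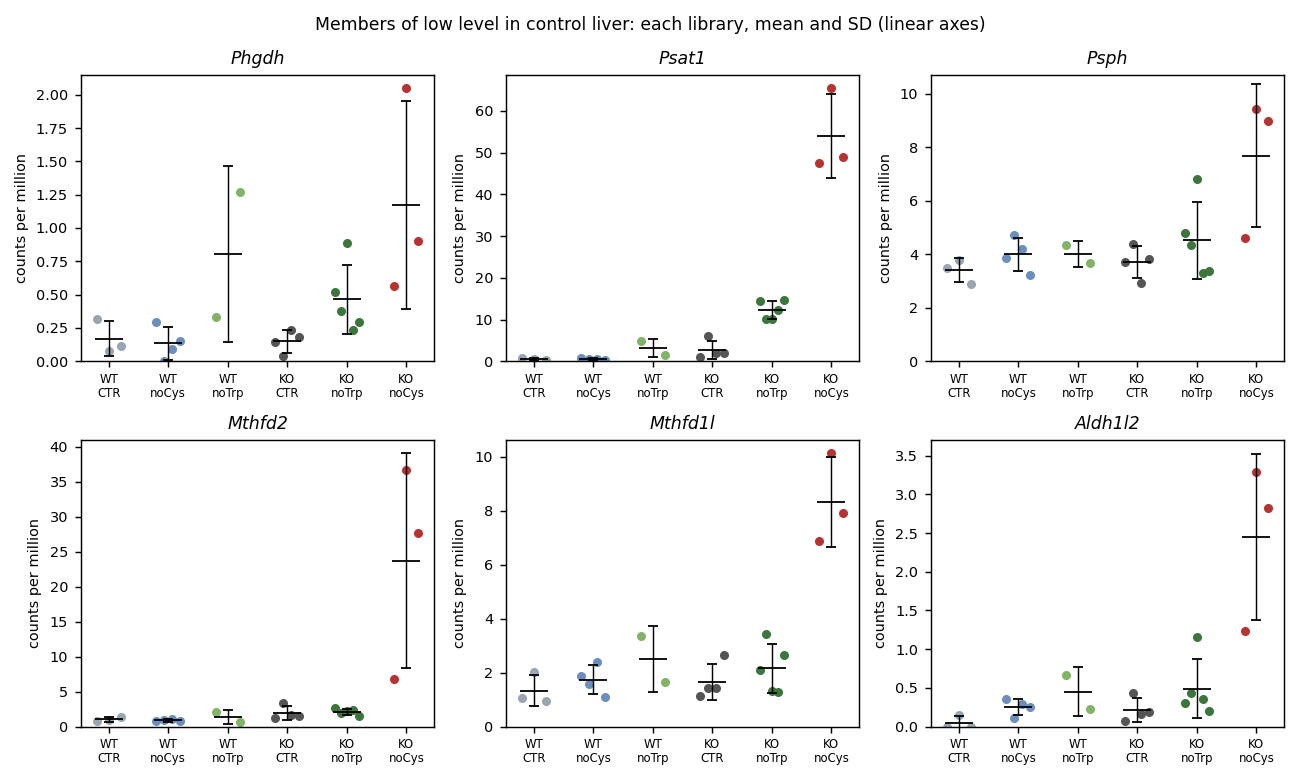
CPM in each library (points), with the group mean and SD (bars), for the 6 genes of low level in control liver, over WT and KO groups on 3 diets. The KO noCys points lie above the points of both other KO groups for *Psat1*, *Mthfd2*, *Mthfd1l* and *Aldh1l2*, while for *Phgdh* and *Psph* they overlap KO noTrp.

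*Psat1* (ENSMUSG00000024640, chr19:15904678-15947337, minus strand), the phosphoserine aminotransferase that takes its amino group from glutamate, moved most. Gene positions are those of GENCODE M21 on GRCm38. It read 0.741, 0.618 and 0.232 CPM in WT CTR, 0.817, 0.563, 0.475 and 0.403 CPM in WT noCys, and 4.76 and 1.57 CPM in WT noTrp. In KO it read 1.07, 5.96, 1.89 and 2.01 CPM on CTR, 10.1, 10.2, 12.2, 14.6 and 14.3 CPM on noTrp, and 47.5, 65.5 and 49.0 CPM on noCys. The 3 KO diets did not overlap, and every KO noCys library was above all 18 others. KO noCys exceeded WT noCys by 6.55 ± 0.46 on the log2 scale (fitted change ± SE, adjusted p = 1.4e-08), the fourth largest rise among the 14370 genes.

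The RefSeq promoters of the serine synthesis genes, 250 bases before the start to 50 after it on GRCm38.p6, are shown because these 3 genes share a pathway and all rose. Capitals mark matches on either strand to CCAAT (the box bound by the factor NF-Y) and to TGACNNNGC, the core of the antioxidant response element.
*Psat1*, chr19:15925010-15925309, minus strand: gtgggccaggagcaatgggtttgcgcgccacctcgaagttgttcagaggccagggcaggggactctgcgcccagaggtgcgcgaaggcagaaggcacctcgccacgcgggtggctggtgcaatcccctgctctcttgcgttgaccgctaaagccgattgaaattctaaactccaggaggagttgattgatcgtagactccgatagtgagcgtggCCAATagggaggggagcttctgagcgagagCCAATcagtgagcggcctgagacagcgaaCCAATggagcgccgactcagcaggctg
*Phgdh*, chr3:98339920-98340219, minus strand: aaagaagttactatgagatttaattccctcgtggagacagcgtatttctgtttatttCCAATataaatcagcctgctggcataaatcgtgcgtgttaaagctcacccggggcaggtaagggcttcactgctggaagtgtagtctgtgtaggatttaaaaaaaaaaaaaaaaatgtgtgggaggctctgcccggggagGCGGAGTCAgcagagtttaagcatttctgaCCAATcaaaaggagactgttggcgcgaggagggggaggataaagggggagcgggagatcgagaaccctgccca
*Psph*, chr5:129787204-129787503, minus strand: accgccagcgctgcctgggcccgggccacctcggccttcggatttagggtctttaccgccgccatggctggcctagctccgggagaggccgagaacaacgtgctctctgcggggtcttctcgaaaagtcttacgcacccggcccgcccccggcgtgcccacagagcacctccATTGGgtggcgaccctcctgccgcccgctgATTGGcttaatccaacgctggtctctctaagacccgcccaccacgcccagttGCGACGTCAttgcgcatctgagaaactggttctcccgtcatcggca
CCAAT occurred 3 times in the *Psat1* window, and 2 times each in those of *Phgdh* and *Psph*. TGACNNNGC began at position -53 from the start of *Phgdh* and +4 from that of *Psph*. The *Psat1* window lies within the GENCODE gene, which extends further 5′, and RefSeq lists another *Psat1* start with no match to any motif searched.

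A promoter was listed for 9 of the 10 genes, 10 promoters in all, *Aldh1l2* being the gene without one. CCAAT was in 7 of the 10 windows (*Phgdh*, *Psat1*, *Psph*, *Shmt1*, *Mthfd1*, *Aldh1l1*, *Mthfd2*), and in 37.4% of the 32851 mouse promoters of the same length. These 7 include genes that rose and genes that did not. TGACNNNGC was in 2 of the 10 and in 12.4% of all promoters. TGATGNAA, the core of the element that ATF4 binds with a C/EBP partner, and CACGTG, the E-box, were in 0 of the 10 and in 3.97% and 7.15% of all promoters. A window without these letters says nothing of sites elsewhere in the gene.

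*Phgdh* (ENSMUSG00000053398, chr3:98313170-98339990, minus strand), the dehydrogenase at the head of the pathway, stayed scarce throughout. It read 0.318, 0.0773 and 0.116 CPM in WT CTR, 0.292, 0, 0.0950 and 0.151 CPM in WT noCys, and 0.335 and 1.27 CPM in WT noTrp. KO livers gave 0.143, 0.0357, 0.236 and 0.183 CPM on CTR, 0.380, 0.887, 0.235, 0.296 and 0.522 CPM on noTrp, and 0.564, 2.05 and 0.900 CPM on noCys. KO noCys lay above both WT noCys and KO CTR and overlapped KO noTrp and WT noTrp. The change from WT noCys was 2.93 ± 0.65 (log2 ± SE, adjusted p = 0.00226), on 62 reads in 3 libraries against 9 in 4. Without KO noCys replicate 3, which held 43 of the 62 reads, it was 2.22, and without WT noCys replicate 1 it was 3.52. *Phgdh* shares 42.8% of its 61-base stretches with other transcripts, processed pseudogenes such as *Phgdh-ps1* among them, so its counts are uncertain.

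*Psph* (ENSMUSG00000029446, chr5:129765558-129787449, minus strand), the phosphatase that releases serine, had the smallest rise of the 3. It read 3.49, 3.79 and 2.90 CPM in WT CTR, 3.85, 4.73, 4.18 and 3.22 CPM in WT noCys and 4.36 and 3.66 CPM in WT noTrp. On KO CTR it was 3.71, 4.39, 2.91 and 3.84 CPM, on KO noTrp 4.34, 6.83, 3.29, 3.36 and 4.78 CPM, and on KO noCys 4.62, 9.44 and 9.00 CPM. KO noCys replicate 1 lay inside the WT noCys range and the other two above it. The change from WT noCys was 0.98 ± 0.25 (adjusted p = 0.00605). Without KO noCys replicate 3 it was 0.81 and no longer called (adjusted p = 0.056). *Psph* overlaps *Cct6a* on the opposite strand over 10.4% of its exon bases, and the strand setting of the counting is not given in the sources used here.

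Among the mitochondrial genes, *Mthfd2* (ENSMUSG00000005667, chr6:83305691-83325908, minus strand), the NAD-dependent methylenetetrahydrofolate dehydrogenase and cyclohydrolase, changed most. It read 0.741, 0.928 and 1.39 CPM in WT CTR, 0.758, 0.901, 1.14 and 0.756 CPM in WT noCys, and 2.08 and 0.672 CPM in WT noTrp. In KO it read 1.21, 3.43, 1.65 and 1.55 CPM on CTR, 1.90, 2.22, 2.29, 1.48 and 2.69 CPM on noTrp, and 6.77, 36.6 and 27.7 CPM on noCys. All 3 KO noCys libraries were above the other 18, and within the group the highest was 5.42 times the lowest. The change from WT noCys was 4.78 ± 0.47 (adjusted p = 8.98e-07). Its promoter is shown beside those of the serine genes since it rose with them, CCAAT in capitals on either strand.
*Mthfd2*, chr6:83317555-83317854, minus strand: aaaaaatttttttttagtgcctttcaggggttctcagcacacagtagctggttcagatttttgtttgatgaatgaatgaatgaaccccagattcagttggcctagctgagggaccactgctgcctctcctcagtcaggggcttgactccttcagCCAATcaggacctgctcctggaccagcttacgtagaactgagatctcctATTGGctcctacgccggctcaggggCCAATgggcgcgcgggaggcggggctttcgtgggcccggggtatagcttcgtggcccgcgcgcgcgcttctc
CCAAT occurred 3 times, all within 100 bases before the start. This window too lies within the GENCODE gene, which extends further 5′.

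*Psat1* and *Mthfd2* did not move by the same amount in each liver. *Mthfd2* CPM per *Psat1* CPM was 0.143, 0.560 and 0.566 in KO noCys replicates 1, 3 and 4, and 0.101 to 0.217 in the 5 KO noTrp libraries. On the control diet it was 0.575 to 1.13 in KO, and in WT noCys 0.929 to 2.40. KO noCys replicate 1 held *Psat1* near the level of its group and *Mthfd2* far below it, and it was also the lowest of its group for *Phgdh*, *Psph*, *Mthfd1l*, *Aldh1l2* and *Shmt2*. It was the shallowest library, with 8889951 counts, and CPM are scaled for depth. Its hepatocyte markers summed to 82901 CPM, against 52397 and 56785 CPM in replicates 3 and 4, and its TMM factor was 0.998 against 1.14 and 1.12. The part of these differences in the ratio was not tested.

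*Mthfd1l* (ENSMUSG00000040675, chr10:3973118-4167081, plus strand) is the mitochondrial enzyme that releases formate. It read 1.06, 2.01 and 0.929 CPM in WT CTR, 1.87, 1.58, 2.37 and 1.11 CPM in WT noCys, and 3.35 and 1.64 CPM in WT noTrp. KO values were 1.14, 1.43, 1.42 and 2.65 CPM on CTR, 3.42, 1.33, 1.29, 2.67 and 2.09 CPM on noTrp, and 6.88, 10.1 and 7.91 CPM on noCys. KO noCys was above the other 18 libraries, which overlapped one another across groups. The change from WT noCys was 2.29 ± 0.35 (adjusted p = 0.000102).

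*Aldh1l2* (ENSMUSG00000020256, chr10:83487450-83534140, minus strand), the mitochondrial counterpart of *Aldh1l1* and a source of NADPH, was close to absent elsewhere. WT CTR libraries read 0, 0.155 and 0 CPM, WT noCys 0.350, 0.113, 0.285 and 0.252 CPM, and WT noTrp 0.671 and 0.224 CPM. KO read 0.0713, 0.428, 0.157 and 0.183 CPM on CTR, 0.434, 1.15, 0.353, 0.198 and 0.298 CPM on noTrp, and 1.24, 3.29 and 2.83 CPM on noCys. Again the 3 KO noCys libraries were above the other 18, though KO noTrp replicate 2 came near the lowest of them. The change from WT noCys was 3.22 ± 0.55 (log2 ± SE), on 124 reads against 15. Since the gene entered the test only through KO noCys, where it is high, no p is given for it as support. The 2 reads in WT CTR give a pooled level of 0.0645 CPM, with an exact 95% Poisson interval of 0.00782 to 0.233 CPM that covers counting error only. *Aldh1l2* overlaps *D10Wsu102e* on the opposite strand over 14.1% of its exon bases.

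*Shmt2* (ENSMUSG00000025403, chr10:127517123-127522444, minus strand), which feeds serine carbon into the mitochondrial chain, was abundant everywhere and rose little. It read 237, 224 and 240.0 CPM in WT CTR, 219, 222, 216 and 239 CPM in WT noCys, and 208 and 234 CPM in WT noTrp. KO livers read 267, 259, 239 and 241 CPM on CTR, 233, 260, 272, 268 and 270 CPM on noTrp, and 279, 281 and 290.2 CPM on noCys. KO noCys was above all other libraries by a narrow margin. The change from WT noCys was 0.34 ± 0.08 (adjusted p = 0.00388), a fold of 1.27.

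The cytosolic folate enzymes are encoded by *Shmt1* (ENSMUSG00000020534, chr11:60788104-60811718, minus strand), *Mthfd1* (ENSMUSG00000021048, chr12:76255298-76319803, plus strand) and *Aldh1l1* (ENSMUSG00000030088, chr6:90486427-90600203, plus strand). None of the 3 was called in KO noCys against WT noCys. *Shmt1* spanned 148 to 166 CPM in KO noCys and 134 to 207 CPM in WT noCys, and 125 to 187 CPM in the other groups. *Mthfd1* spanned 163 to 187 CPM and 165 to 211 CPM in the same 2 groups, and 153 to 228 CPM elsewhere. *Aldh1l1* spanned 934 to 1200.3 CPM and 975 to 1187 CPM, and 889 to 1437 CPM elsewhere. KO noCys and WT noCys overlapped for all 3. The fitted changes, with 95% intervals, were -0.16 (-0.47 to 0.15), -0.15 (-0.41 to 0.12) and -0.07 (-0.35 to 0.21), with adjusted p of 0.438, 0.403 and 0.724 (edgeR). Each interval excludes a change of 0.5 in either direction on the log2 scale. Scaled by library totals alone the 3 changes turned positive, at 0.05, 0.06 and 0.13, and the median of all genes moved to 0.20.

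**Figure D2:**
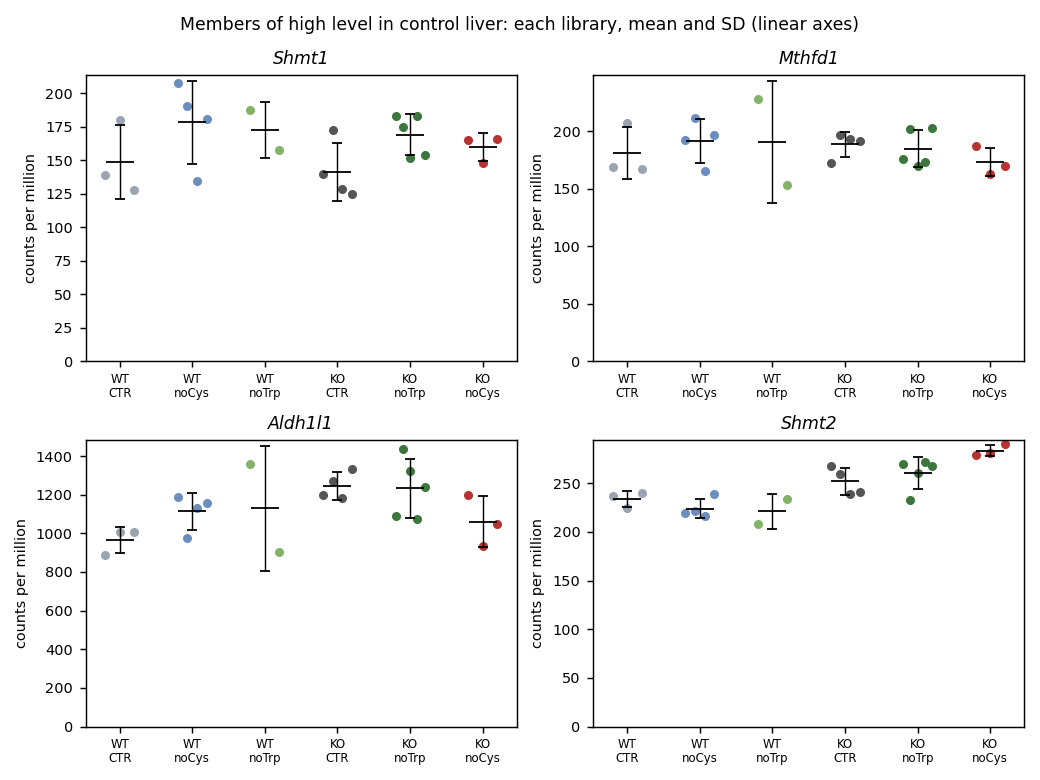
CPM in each library (points), with the group mean and SD (bars), for the 4 genes of high level in control liver, on axes that start at 0. KO noCys and WT noCys overlap for *Shmt1*, *Mthfd1* and *Aldh1l1*, and for *Shmt2* the 3 KO noCys points lie at 279 to 290.2 CPM, just above the rest.

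The balance of the compartments can be read as the ratio of RPKM of a mitochondrial gene to its cytosolic partner in the same library. *Mthfd2* per *Mthfd1* was 0.0060 ± 0.0019 in WT noCys (n = 4), 0.013 ± 0.0061 in KO CTR (n = 4), 0.015 ± 0.0041 in KO noTrp (n = 5) and 0.180 ± 0.122 in KO noCys (n = 3, 0.0461 to 0.286). *Mthfd1l* per *Mthfd1* was 0.0093 ± 0.0038 in WT noCys and 0.0486 ± 0.0128 in KO noCys. *Shmt2* per *Shmt1* was 1.61 ± 0.299 in WT noCys and 2.22 ± 0.138 in KO noCys, and 2.25 ± 0.251 in KO CTR. So *Shmt2* exceeded *Shmt1* in all 21 livers, and *Mthfd2* and *Mthfd1l* stayed below *Mthfd1* in all of them. These ratios are transcript levels per length and describe the same values as the changes above.

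**Figure D3:**
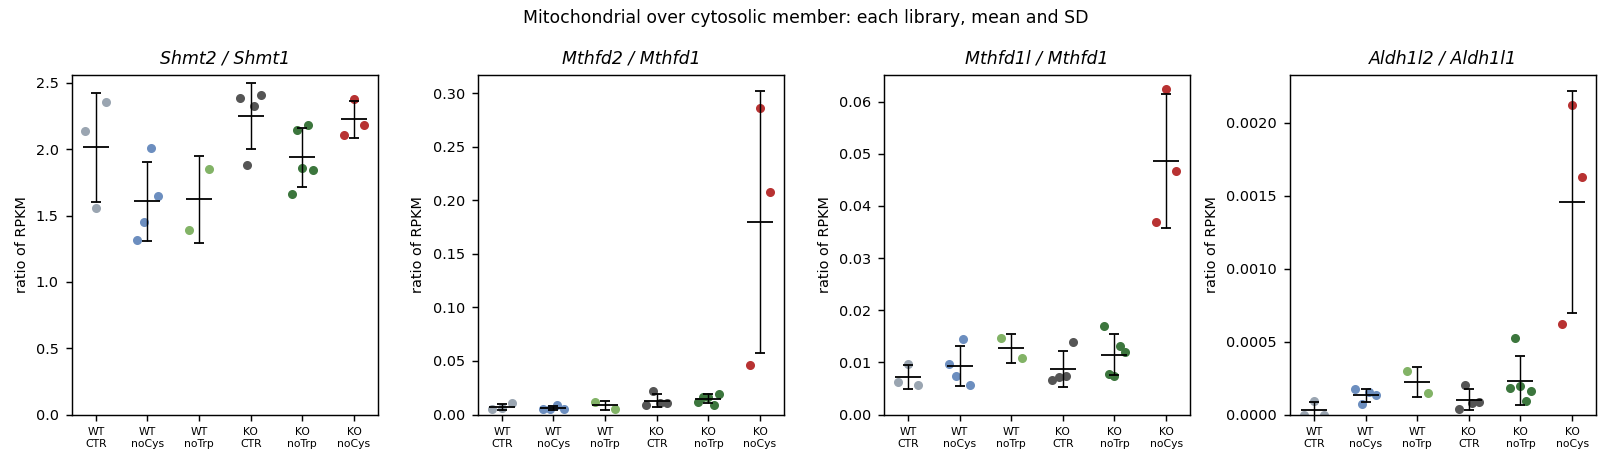
Ratio of RPKM (mitochondrial over cytosolic gene) in each library (points) with the group mean and SD (bars), each panel on its own axis from 0. KO noCys stands apart for *Mthfd2* over *Mthfd1* (0.0461 to 0.286), *Mthfd1l* over *Mthfd1* and *Aldh1l2* over *Aldh1l1*, and overlaps KO CTR for *Shmt2* over *Shmt1*.

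KO noCys against KO CTR asks what removing cysteine did in the knockout. It shares the KO noCys libraries with the comparison above, so the values stand side by side and are not independent. Here 6 of the 10 were called higher, where 20.2% of all genes were called and 10.6% called higher. Without *Aldh1l2* it was 5 of 9. Without KO noCys replicate 3, 5 members and 1379 of all genes were called in place of 6 and 2906. Of the 8 hepatocyte markers 4 were called lower (52397 to 82901 CPM summed in KO noCys, 83611 to 97230 CPM in KO CTR). Erythroid (3 of 5 tested), stellate cell (2 of 6), cholangiocyte (1 of 5), endothelial (1 of 5) and periportal (1 of 5) markers were also called lower in the counts given, 1 of 5 pericentral markers was lower and 1 higher, and *Cidec* of the adipocyte markers was higher (1.13). The part of these markers in the members' values was not tested. *Psat1* rose by 4.18 ± 0.37, *Mthfd2* by 3.53 ± 0.42, *Phgdh* by 3.19 ± 0.66, *Mthfd1l* by 2.36 ± 0.35 and *Psph* by 1.06 ± 0.25 (log2 ± SE, edgeR adjusted p from 4.84e-07 for *Psat1* to 0.00493 for *Psph*). *Aldh1l2* was fitted 3.34 ± 0.54 higher, given with no p as above. *Shmt2* differed by 0.17 ± 0.08 and was not called (adjusted p = 0.146), but was called with limma-voom (0.21, adjusted p = 0.0288) and with library totals alone (0.30, adjusted p = 0.0479). KO CTR replicate 2 had the highest *Psat1*, *Mthfd2* and *Aldh1l2* of its group, and it was also the deepest library. Without it the changes were 5.04 for *Psat1* and 4.15 for *Aldh1l2*. Without KO noCys replicate 3, *Phgdh* was at 2.47 and *Psph* at 0.89, the latter not called (adjusted p = 0.0504).

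**Figure D4:**
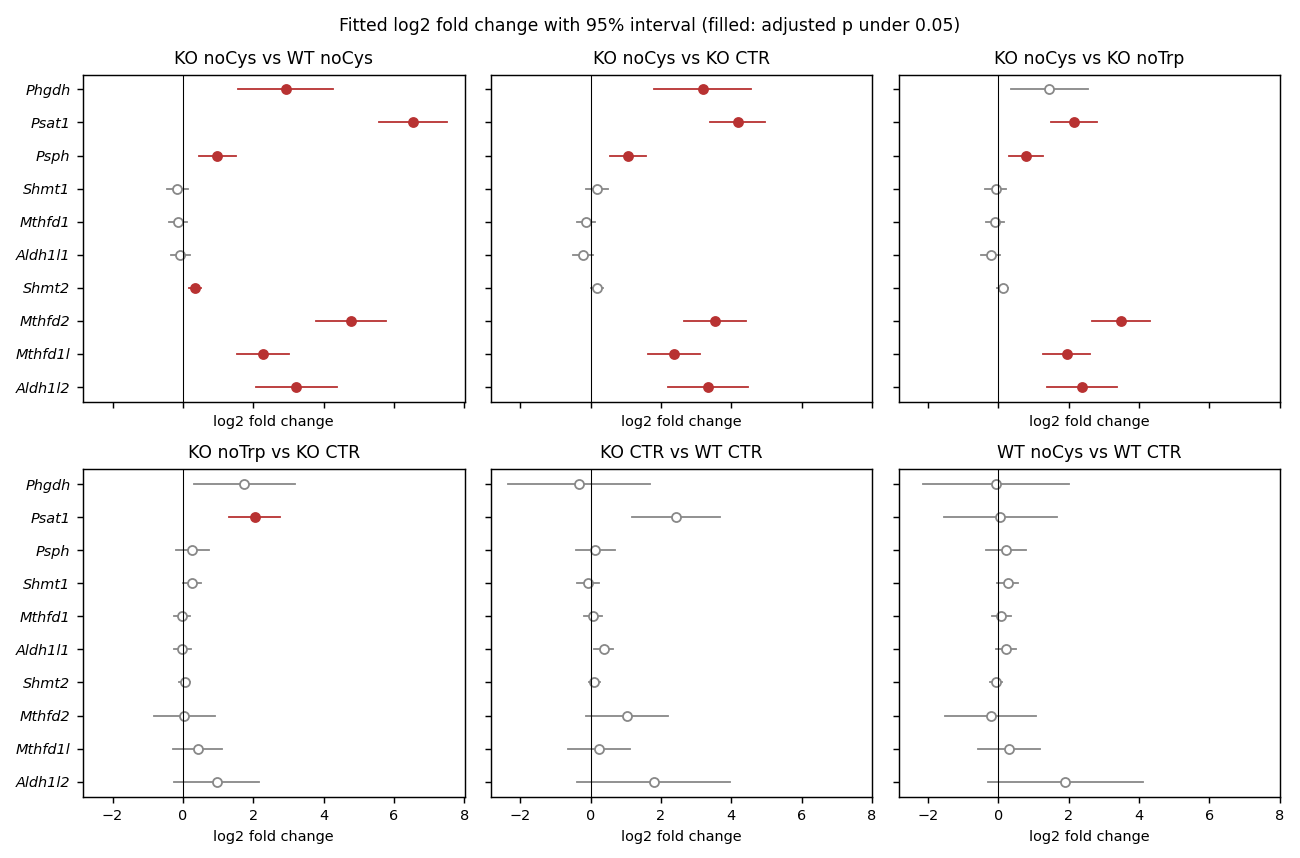
Fitted log2 fold change (point) with its 95% interval (line) for the 10 genes in 6 of the comparisons, filled red where the edgeR adjusted p was under 0.05. In the 3 panels that involve KO noCys the filled points are serine synthesis and mitochondrial genes, led by *Psat1* or *Mthfd2*, and in KO noTrp against KO CTR *Psat1* alone is filled. *Aldh1l2* passed the filter on low counts only through KO noCys.

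The tryptophan-free diet lacks another amino acid, one that no mouse can make. Of the 10, 1 was called in KO noTrp against KO CTR, where 1.87% of all genes were called and 0.779% called higher. It was *Psat1*, higher by 2.04 ± 0.34 (adjusted p = 0.00366), and by 2.90 without KO CTR replicate 2. Leukocyte and Kupffer cell markers summed to 156 to 282 CPM in KO noTrp and 93.1 to 171 CPM in KO CTR, overlapping, and 1 of 7 tested was called, *Clec4f*, higher by 0.86 (adjusted p = 0.0378). Of the 8 hepatocyte markers *Ttr* was called lower (-0.46, adjusted p = 0.0225). The part of these markers in the *Psat1* value was not tested. All genes called ranged from 105 (without KO CTR replicate 1) to 447 (without KO CTR replicate 2) around 269. *Mthfd2* averaged 2.12 ± 0.451 CPM in KO noTrp (n = 5) and 1.96 ± 0.994 CPM in KO CTR (n = 4), overlapping, with adjusted p = 0.974. *Phgdh* gave 1.75 ± 0.69 (unadjusted p = 0.0194, adjusted p = 0.194). In WT noTrp against WT CTR, 1 of the 10 was called, where 3.19% of all genes were called and 1.7% called higher. All genes called ranged from 99 (without WT noTrp replicate 1) to 728 (without WT noTrp replicate 2) around 459. Leukocyte and Kupffer cell markers summed to 188 to 228 CPM in WT noTrp and 106 to 159 CPM in WT CTR, with 0 of 7 tested called, and of the hepatocyte and erythroid markers *Ttr* (-0.52) and *Alas2* (-0.78) were called lower. Their part in the next value was not tested. It was again *Psat1*, 2.53 ± 0.67 (adjusted p = 0.0413), from 2 animals. That call was lost without WT noTrp replicate 1, where the change was 1.51 (adjusted p = 0.435), and without any one of the 3 WT CTR libraries (2.24 to 2.78, adjusted p 0.0909 to 0.142). With 1 WT noTrp library left out, the lone one is assumed to vary like the other groups. The test of whether the tryptophan diet acted differently in the genotypes called 0 of the 10, and 0% of all genes with edgeR. Of the 10, 0 had an unadjusted p under 0.05, where 5.71% of all genes did (821 of 14370). DESeq2 called 18 genes there, limma-voom 0 and edgeR without the filter on low counts 10, and leaving out 1 library gave 0 to 67 (67 without WT noTrp replicate 2).

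Set against each other in KO, the cysteine-free diet gave higher levels than the tryptophan-free diet for 5 of the 10, where 13.9% of all genes were called and 7.17% called higher. Without *Aldh1l2* it was 4 of 9. All genes called fell from 2000 to 570 without KO noCys replicate 3, with 4 members called, and to 1197 without replicate 4. Of the markers tested, 2 of 8 for hepatocytes, 2 of 7 for leukocytes and Kupffer cells and 3 of 5 for endothelium were called lower and none of these higher. Periportal (1 of 5) and cholangiocyte (1 of 5) markers were also called lower, and of 5 pericentral markers 1 was lower and 1 higher. The leukocyte and Kupffer cell sums were 97.2 to 122 CPM in KO noCys and 156 to 282 CPM in KO noTrp, the endothelial sums 84.5 to 85.8 and 112 to 147 CPM, and neither pair overlapped. The part of these markers in the members' values was not tested. *Mthfd2* was higher by 3.49 ± 0.39 (adjusted p = 1.72e-05), *Aldh1l2* by 2.38 ± 0.47, *Psat1* by 2.14 ± 0.32 (adjusted p = 0.000211), *Mthfd1l* by 1.94 ± 0.32 and *Psph* by 0.79 ± 0.23 (adjusted p = 0.028). The groups overlapped for *Psph*, and its call was lost without KO noCys replicate 3 (0.62) or 4 (0.68) or without KO noTrp replicate 3 (0.69) or 4 (0.71). *Phgdh* differed by 1.44 ± 0.53 with adjusted p = 0.0725, and was called without KO noCys replicate 1 (1.71) or without KO noTrp replicate 2 (1.77). Without KO noCys replicate 3 it was at 0.73. With all libraries kept, limma-voom called *Phgdh* as well (6 members), and the fit of only the groups compared did not call *Psph* (adjusted p = 0.0908, 4 members).

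The genotypes were also compared on the diets with cysteine. In KO CTR against WT CTR, 0 of the 10 were called with edgeR, where 0.32% of all genes were called, and 2 had an unadjusted p under 0.05, where 9.59% of all genes did. All genes called there ranged from 9 to 53 around 46 with 1 library left out. *Psat1* was above WT in all 4 KO libraries, by 2.43 ± 0.60 (unadjusted p = 0.00063, adjusted p = 0.0879). DESeq2 called it (2.38, adjusted p = 0.00464), and so did edgeR without the filter on low counts (adjusted p = 0.0102). Without KO CTR replicate 2 it was at 1.57. *Aldh1l1* was the other, 0.36 ± 0.14 with adjusted p = 0.353 and no overlap. In KO noTrp against WT noTrp, 0 of the 10 were called with edgeR, where 0.195% of all genes were called, and 2 had an unadjusted p under 0.05, where 8.91% of all genes did. *Psat1* was higher in all 5 KO libraries, by 1.93 ± 0.45 (adjusted p = 0.0774), and DESeq2 called it (1.95, adjusted p = 0.00489). Without WT noTrp replicate 1 it was at 2.96. *Shmt2* differed by 0.24 ± 0.09 (adjusted p = 0.397).

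In WT mice, removing cysteine left no member called. In WT noCys against WT CTR, 0 of the 10 were called with edgeR, DESeq2 or limma-voom and 0 had an unadjusted p under 0.05, where 0.661% of all genes were called with edgeR and 13.9% had an unadjusted p under 0.05. The 95 genes behind the 0.661% fell to between 1 (without WT CTR replicate 3) and 53 (without WT CTR replicate 2) with any 1 library left out. The groups overlapped for all 10, a count for which the share over all genes is not given here. *Aldh1l2* was fitted higher by 1.91 (95% interval -0.29 to 4.10) and was not called. The 95% intervals of the change were -0.23 to 0.11 for *Shmt2*, -0.18 to 0.34 for *Mthfd1*, -0.05 to 0.57 for *Shmt1* and -0.08 to 0.49 for *Aldh1l1*. They were wider for the scarce genes, -1.56 to 1.67 for *Psat1*.

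The interaction of genotype and cysteine diet tests the difference directly. Of the 10, 3 were called, where 7.44% of all genes were called and 3.56% called higher. Of the markers tested, 2 of 8 for hepatocytes, 2 of 5 periportal, 2 of 5 erythroid and 1 of 5 cholangiocyte markers were called lower here. Of the pericentral markers 1 of 5 was higher. The part of these markers in the members' values was not tested. All genes called fell from 1069 to 430 without KO noCys replicate 3, with 2 members called, and to between 640 and 701 without KO noCys replicate 4 or WT CTR replicate 1 or 2. The change on noCys was larger in KO than in WT by 4.12 ± 0.97 for *Psat1* (adjusted p = 0.0141), 3.75 ± 0.77 for *Mthfd2* (adjusted p = 0.00623) and 2.06 ± 0.55 for *Mthfd1l* (adjusted p = 0.0284). *Phgdh* (3.25 ± 1.28, adjusted p = 0.126) and *Psph* (0.85 ± 0.37, adjusted p = 0.167) were not called, nor was *Aldh1l2* (1.43 ± 1.62, adjusted p = 0.644), and *Aldh1l1* had the other sign, -0.43 ± 0.19 (adjusted p = 0.176). With 1 library left out *Phgdh* ranged from 2.49 to 3.84 and was called in 0 of 14 fits. Of the alternatives that kept all libraries, 1 of 5 called it. *Mthfd2* kept its call in every fit that left out 1 library. *Psat1* lost its call without WT CTR replicate 1 (3.87, adjusted p = 0.0736) or 2 (3.99, adjusted p = 0.0778) and was at 4.98 without KO CTR replicate 2. *Mthfd1l* lost its call without WT CTR replicate 2 (1.59), KO CTR replicate 1 (1.92) or 3 (2.0), WT noCys replicate 4 (1.86) or KO noCys replicate 3 (1.88), and with the replicate block (2.07, adjusted p = 0.0567). Without WT CTR replicate 2, 1 member was called.

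The genes whose levels ran closest to each member over the 21 libraries were listed by Pearson r of log2 CPM, as a description, since groups, depth and diet are shared by all points. For *Mthfd2* they were *Gars* (r = 0.96), *Sars* (0.96), *Iars* (0.94), *Creg1* (0.94) and *Vars* (0.94), 4 of the 5 being genes of aminoacyl-tRNA synthetases. For *Psat1* they were *Eif2b5* (0.94), *Abcc3* (0.94), *Cct3* (0.93), *Rexo2* (0.93) and *Usp5* (0.93). After group means were removed the 5 genes had r of 0.62 to 0.80 with *Mthfd2* and 0.099 to 0.65 with *Psat1*, the lowest being *Rexo2*. *Aldh1l2* ran with *Ppp1r12c* (0.93), *Cct2* (0.92), *Ipo4*, *Pck2* and *Lonp1*, the last a mitochondrial protease, with r of 0.57 to 0.66 within groups. *Mthfd1l* ran with *Rpl4* (0.92), *Ncln*, *Derl1*, *Rpl10* (0.90) and *Rpl6* (0.90), with r of 0.51 to 0.72 within groups. The *Rpl* genes among them encode ribosomal proteins. *Aldh1l1* was closest to *Sardh* (0.84), the mitochondrial sarcosine dehydrogenase, with r of 0.83 after group means were removed. Among the members, *Psph* and *Aldh1l2* had the highest r (0.86, and 0.68 within groups), and *Psat1* and *Mthfd2* had 0.83 (0.45 within groups).

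The reactions around the members were covered by 57 further genes, of which 54 were tested. In KO noCys against WT noCys 10 were called higher and 10 lower, 18.5% of those tested in each direction, where 14.8% of all genes were called higher and 13.4% lower. Against KO CTR it was 7 and 8 (13% and 14.8%, all genes 10.6% and 9.59%). The counts of the smaller lists that follow are to be read against the same shares of all genes, 28.2% called in either direction in KO noCys against WT noCys. Of the 20, 9 kept their call in every fit that left out 1 library and 11 did not. Purine synthesis, which takes up formyl groups from folate, had 4 of 6 called higher, where 14.8% of all genes were, and 1 lower (median log2 fold change 0.72, all genes -0.02). *Pfas* rose by 1.15 ± 0.14 (adjusted p = 6.25e-06), *Adsl* by 0.89 ± 0.16, *Gart* by 0.83 ± 0.28 and *Atic*, whose enzyme uses a formyl group, by 0.61 ± 0.13. *Ppat*, the first enzyme of the path, was lower (-0.58 ± 0.20). *Gart* and *Ppat* were among those that lost their call (0.61 to 1.02 and -0.71 to -0.50 over the fits that left out 1 library).

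Of 7 other folate cycle enzymes, 2 were called higher and 2 lower (all genes 14.8% and 13.4%). *Mthfd2l*, a mitochondrial relative of *Mthfd2*, and *Mthfs*, which returns 5-formyltetrahydrofolate to use, were lower (-0.96 ± 0.28 and -0.74 ± 0.24). *Mtrr* (0.55 ± 0.15), which reactivates methionine synthase, and *Ftcd* (0.29 ± 0.09), which takes carbon from histidine breakdown, were higher. None of these 4 kept its call in every fit that left out 1 library. Within the mitochondrial dehydrogenases *Mthfd2* was higher and *Mthfd2l* lower, the range for *Mthfd2l* over those fits being -1.10 to -0.88. The ranges were -0.86 to -0.56 for *Mthfs*, 0.46 to 0.61 for *Mtrr* and 0.26 to 0.35 for *Ftcd*.

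The genes for folate uptake and retention were mixed, with 1 of 6 called higher, near the 14.8% of all genes, and 2 lower (all genes 13.4%). *Slc19a1*, the reduced folate carrier, rose by 0.59 ± 0.15, while *Slc46a1*, the proton-coupled folate transporter, fell (-0.52 ± 0.08), as did *Folr2* (-0.97 ± 0.32), a folate receptor known from macrophages. *Folr2* lost its call without KO noCys replicate 1 or 4 or WT noCys replicate 2 (range -1.14 to -0.86). *Fpgs*, which adds the glutamates that keep folate in the cell, was called higher against KO CTR at 0.32 ± 0.11 (0.26 to 0.36, call lost in 5 of 7 such fits). Of 11 genes for glycine cleavage and choline oxidation, 0 were higher and 3 lower, a count in either direction near the 28.2% of all genes called. They were *Pipox*, a peroxisomal sarcosine oxidase (-1.13 ± 0.11, adjusted p = 8.57e-07), *Aldh7a1*, which oxidizes betaine aldehyde (-0.72 ± 0.12), and *Gcsh*, the carrier protein of glycine cleavage (-0.28 ± 0.09, call lost in 3 of 7 such fits). *Bhmt*, which returns a methyl group from betaine to homocysteine, was lower against KO CTR (-1.28 ± 0.22, adjusted p = 0.000442).

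Of 5 serine carriers tested, 1 was called, *Slc1a4*, a carrier of serine, alanine and cysteine, higher by 1.84 ± 0.41 with overlapping groups (adjusted p = 0.00237). Of 11 genes that use or break down serine and glycine, *Grhpr* (0.32 ± 0.11, call lost in 5 of 7 such fits), which reduces hydroxypyruvate, and *Gcat* (0.32 ± 0.08), which makes glycine from threonine, were higher and *Glyctk*, the glycerate kinase, lower (-0.45 ± 0.14, lost in 2 of 7). Against KO CTR *Gcat* was lower (-0.28 ± 0.08), a call kept in 3 of 7 fits that left out 1 library (-0.32 to -0.24). Of the 5 enzymes around 3-phosphoglycerate, *Bpgm*, which draws off bisphosphoglycerate, was lower (-0.36 ± 0.13, -0.43 to -0.25 and lost in 5 of 7 fits) and none higher. The transcription factors *Atf4*, *Nfe2l2* and *Myc* were not called in KO noCys against WT noCys. In the interaction with the cysteine diet, 3.7% of the 54 were called higher and 5.56% lower, near the 3.56% and 3.88% of all genes. *Pfas* (0.89 ± 0.20) and *Myc* (3.13 ± 0.93, 0.69 to 3.64 with 1 library left out, and called in 3 of 14 such fits) were called higher, and *Pipox* (-1.12 ± 0.15), *Aldh7a1* (-0.78 ± 0.16) and *Slc46a1* (-0.51 ± 0.12) lower, the last not called with library totals alone or without the filter on low counts.

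**Figure D5:**
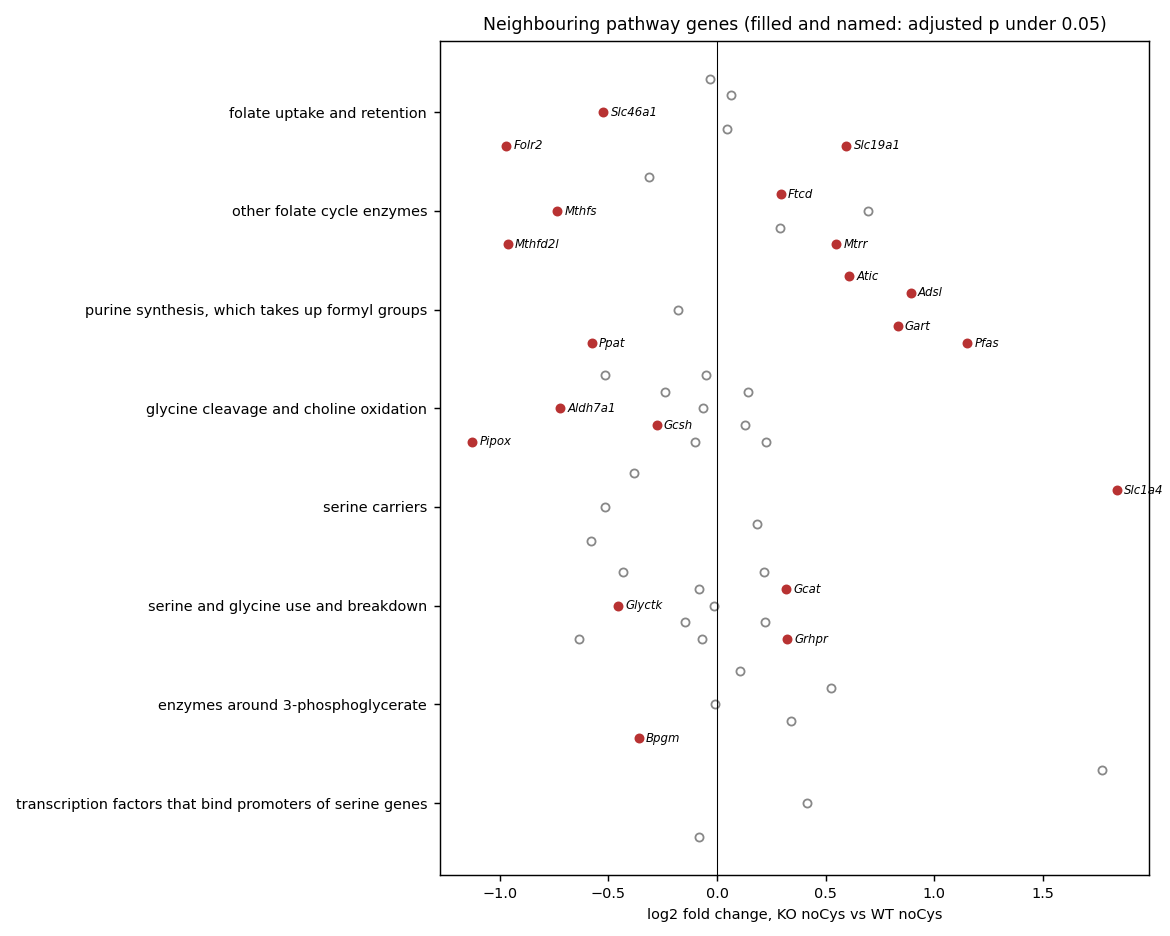
Fitted log2 fold change in KO noCys against WT noCys for 54 neighbouring pathway genes in 8 lists, one point per gene, filled and named where the edgeR adjusted p was under 0.05. Purine synthesis has 4 filled points to the right and 1 to the left, and glycine cleavage and choline oxidation has 3 to the left and none to the right.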

How the data were processed

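Liver RNA-seq libraries (n = 21) were grouped by the genotype and diet in their titles. Per the study's methods, the authors selected poly(A) RNA, sequenced paired reads of 61 bases, aligned them to GRCm38 with HISAT2 2.1.0 and counted genes with htseq-count (HTSeq 0.11.0). The deposited values are raw counts per gene. The annotation release and the strand setting are not given in the sources used here. Of its columns, 1 could be tied to none of the samples and stayed out.

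Symbols and lengths came from GENCODE M21. Genes with a minimum count of 10 (minimum total 15) by filterByExpr were kept, which left 14370 of 26504 with any count. Counts were scaled by TMM (0.883 to 1.14), a one-way model of 6 groups was fitted with edgeR 4.0.16 in R 4.3.3, and contrasts were tested two-sided by quasi-likelihood F-test. Each adjusted p is the Benjamini-Hochberg value over 14370 genes unless another tool is named, with calls under 0.05. SE is the log2 fold change divided by the root of F. The code was tested on simulated data. Alternatives were DESeq2 1.42.0 (the authors' tool), limma-voom 3.58.1 with quality weights, RLE factors, library totals, no filter, only the groups compared, a replicate block, and each library left out. Depth was 8889951 to 27230852 counts per library.

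The named genes were the 10 members, and of the pathway lists those called in KO noCys against WT noCys or KO CTR or in an interaction, except 2 list genes that are not reported here and enter no list count. The members and lists were chosen with earlier results of these data known, and the study itself names *Psat1* and *Mthfd2* from these libraries. The smaller groups had 2 or 3 animals. Reads may split between genes that share sequence or overlap.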

Additional observations from a re-analysis of the deposited data

Results flagged for a closer look

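*Aldh1l2* in KO noTrp replicate 2 was at 1.15 CPM, far from the other 4 libraries of its group (0.198 to 0.434 CPM). It was the lone library so marked among the 30 sets of libraries tested (10 members in the 3 groups of 4 or 5 libraries), and chance alone marks about 1 set in 20. The same library had the highest *Phgdh* (0.887 CPM) and *Psph* (6.83 CPM) of its group.

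The change on the cysteine-free diet differed between the genotypes, by edgeR's interaction test, for 3 members: *Psat1* (4.12, adjusted p = 0.0141), *Mthfd2* (3.75, adjusted p = 0.00623) and *Mthfd1l* (2.06, adjusted p = 0.0284), each the change in KO minus the change in WT on the log2 scale. The *Mthfd1l* call was lost with the replicate block (adjusted p = 0.0567) and in 5 of 14 fits that left out 1 library. Of the 54 neighbouring genes tested it differed for 5, or 9.26%, near the 7.44% of all genes. They were *Slc46a1* (-0.51, adjusted p = 0.0123), *Pfas* (0.89, adjusted p = 0.00942), *Aldh7a1* (-0.78, adjusted p = 0.00736), *Pipox* (-1.12, adjusted p = 0.000269) and *Myc* (3.13, adjusted p = 0.044). The *Myc* call was kept in 3 of 14 fits that left out 1 library, and without WT CTR replicate 1 the value was 0.69. *Myc* spanned 3.72 to 53.8 CPM over the 3 WT CTR libraries.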

How the results depend on the processing

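In KO noCys against WT noCys 6 to 7 members were called over all alternatives, and 6 to 7 with 1 library left out. The 3 uncalled cytosolic genes changed sign when libraries were scaled by their totals alone (*Shmt1* 0.050, *Mthfd1* 0.062, *Aldh1l1* 0.13), which moved the median of all genes to 0.20 and the share of higher genes among those called from 52.5% to 80.0%. With 1 library left out *Aldh1l1* ranged from -0.17 to 0.013, the sign changing without KO noCys replicate 3. In KO CTR against WT CTR and in KO noTrp against WT noTrp, DESeq2 and the fit with no filter on low counts each called 1 member, *Psat1*, in place of 0. In WT noTrp against WT CTR, 0 members in place of 1 were called with limma-voom, with the replicate block, with only the groups compared, and 0 to 1 with 1 library left out. The genotype by cysteine diet interaction called 6 members with limma-voom in place of 3, and 2179 of all genes in place of 1069. With 1 library left out it called 1 to 4 members and 430 to 1399 of all genes. In KO noCys against KO CTR DESeq2 gave no adjusted p for *Phgdh* and called 5 members. No called member changed sign under any alternative run. The cause of these differences was not tested.

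Replicate numbers did not pair the libraries: over 41 pairs of the same number in different groups the median correlation of deviations was -0.016 (-0.34 to 0.37), and 3 of 21 libraries correlated best with their own number. With the replicate block 7 members were called in KO noCys against WT noCys, 6 against KO CTR, 5 against KO noTrp, 1 in KO noTrp against KO CTR and 2 in the genotype by cysteine interaction, where *Mthfd1l* was at 2.07 with adjusted p = 0.0567. Levels per coding length were higher than those per exon length for all 10 members in all 6 groups. This follows from the lengths alone, since the coding length of each is the shorter one. Depth limits the scarce genes, *Phgdh* having 0 to 5 reads in each CTR and WT noCys library.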
